A study of Homo sapiens with 8 samples.

Results

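The genes described here are 7 that SUM159 breast cancer cells expressed when rich in integrin ITGB4 and that were all but absent from ITGB4-low clone 1: CYBA, LAYN, B3GALNT1, HTATIP2, KDELC2 (now also named POGLUT3), NUP210 and RASIP1. They are among the 58336 genes in the deposited count table, and all 7 are among the 15220 genes with enough counts to be tested. They were chosen by name because their counts are high in the ITGB4-high libraries and close to 0 in ITGB4-low clone 1 or in the cells recovered from lungs. Their levels in the 3 groups are therefore a description and carry no test. The choice names no numerical threshold.

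SUM159 is an established human triple-negative breast cancer line. The 8 poly(A) RNA-seq libraries fall into 3 groups: ITGB4 high cells grown in dishes (2 libraries), untreated ITGB4 low clone 1 cells grown in dishes (3 libraries) and ITGB4 low clone 1 cells from the lungs of bleomycin treated mice (3 libraries, called lung-recovered). The lung-recovered cells had been injected through the tail vein, and bleomycin, which injures and inflames the lung, was given through the trachea. The dissociated lungs were cultured overnight before tdTomato-positive tumour cells were sorted. All ITGB4-low and lung-recovered libraries go back to 1 clone, so what belongs to that clone and what to low ITGB4 cannot be told apart, nor can the stay in the lung and the bleomycin. The libraries held 20413724 to 27218800 counts. Levels are given as CPM, counts scaled to an equal library size. ITGB4 itself stood at 420.0 and 376 CPM in the ITGB4-high libraries. It fell to 5.29, 7.46 and 9.13 CPM in ITGB4-low and was back at 401, 376 and 407 CPM in lung-recovered cells, a return that the 7 genes did not follow. Among the genes that mark the line, the hormone receptor gene PGR and the epithelial cadherin gene CDH1 had 0 counts in every library. The receptor gene ESR1 had at most 4 counts in a group, and the mesenchymal filament gene VIM stood at 4380 to 4830 CPM as group means.

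The 7 genes share no pathway. CYBA encodes the small membrane subunit that stabilises several NADPH oxidases, enzymes that pass electrons to oxygen and make superoxide. LAYN encodes layilin, a hyaluronan-binding membrane lectin whose cytoplasmic tail binds talin. B3GALNT1 encodes globoside synthase, which adds N-acetylgalactosamine to the glycolipid made by A4GALT. KDELC2 encodes an enzyme of the endoplasmic reticulum that adds O-linked glucose to EGF repeats, such as those of Notch receptors. HTATIP2 encodes an oxidoreductase-like protein that binds importins and has been described as a suppressor of metastasis. NUP210 encodes a membrane-spanning protein of the nuclear pore, and RASIP1 an effector of RAS and RAP1 that is best known in endothelial cells. Promoters rich in the dinucleotide CpG are often active in many tissues and can be shut off by DNA methylation or polycomb proteins. None of these marks was measured here.

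The genes lie at 7 places on 4 chromosomes (hg38, GENCODE release 29). CYBA (ENSG00000051523) is on chromosome 16 from 88643283 to 88651152, and RASIP1 (ENSG00000105538) on chromosome 19 from 48720587 to 48740721. NUP210 (ENSG00000132182, 13316235 to 13420309) and B3GALNT1 (ENSG00000169255, 161083883 to 161105384) lie far apart on chromosome 3. Chromosome 11 carries HTATIP2 (ENSG00000109854, 20363685 to 20383783), KDELC2 (ENSG00000178202, 108472105 to 108498432) and LAYN (ENSG00000204381, 111540280 to 111561745). RefSeq promoter windows of 300 bases (250 before and 50 after the annotated start, GRCh38.p14) were found for 6 of the 7 genes, and LAYN was not among them. CpG counts per window were 42 in NUP210, 40 in KDELC2, 23 in CYBA, 22 in HTATIP2 and 8 in RASIP1, and 30 to 32 in the 3 windows of B3GALNT1. The median was 14 over 35116 windows of all genes and 25 over the 15973 windows whose symbol matched a tested gene. At least 15 CpG were found in 75.0% of the latter windows and in those of 5 of the 6 genes. RASIP1 was the exception, with an observed over expected CpG ratio of 0.272 against a median of 0.811 for tested genes. The motif GGGCGG, read on both strands, was present 6 times in the CYBA window, 5 times in that of KDELC2, 3 times in that of NUP210 and 2 times in that of HTATIP2. It was present 0, 2 and 0 times in the 3 windows of B3GALNT1 (0 in the first, from which the stretch below is taken) and 0 times in that of RASIP1. Of the tested genes' windows 65.2% held it at least once. Such a match describes the letters and is no evidence of a bound factor. The stretches below show this range, from CpG-rich to CpG-poor. Each is written 5′ to 3′ on the minus strand of GRCh38.p14, ends before both the RefSeq and the GENCODE start of the gene, and has every CpG in capitals.
NUP210, chr3:13420323-13420572, with 33 CpG in 250 bases: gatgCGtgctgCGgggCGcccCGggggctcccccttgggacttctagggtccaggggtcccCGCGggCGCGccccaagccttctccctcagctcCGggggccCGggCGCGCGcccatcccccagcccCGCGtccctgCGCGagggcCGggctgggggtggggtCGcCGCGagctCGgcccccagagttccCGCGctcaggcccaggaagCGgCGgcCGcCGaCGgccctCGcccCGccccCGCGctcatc
B3GALNT1, chr3:161105385-161105599, with 15 CpG in 215 bases: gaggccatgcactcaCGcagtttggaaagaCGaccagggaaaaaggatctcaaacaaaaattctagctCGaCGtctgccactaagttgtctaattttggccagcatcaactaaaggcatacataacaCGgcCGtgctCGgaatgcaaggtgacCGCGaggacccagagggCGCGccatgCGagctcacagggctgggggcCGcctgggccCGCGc
CYBA, chr16:88651153-88651303, with 7 CpG in 151 bases: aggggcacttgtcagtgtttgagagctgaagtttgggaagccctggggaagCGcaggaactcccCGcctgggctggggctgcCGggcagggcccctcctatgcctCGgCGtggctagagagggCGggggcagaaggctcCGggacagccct
RASIP1, chr19:48740722-48740860, with 4 CpG in 139 bases: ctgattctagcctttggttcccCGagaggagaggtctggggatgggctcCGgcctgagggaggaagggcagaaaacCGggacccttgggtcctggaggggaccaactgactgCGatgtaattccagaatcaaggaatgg

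**Figure D1:**
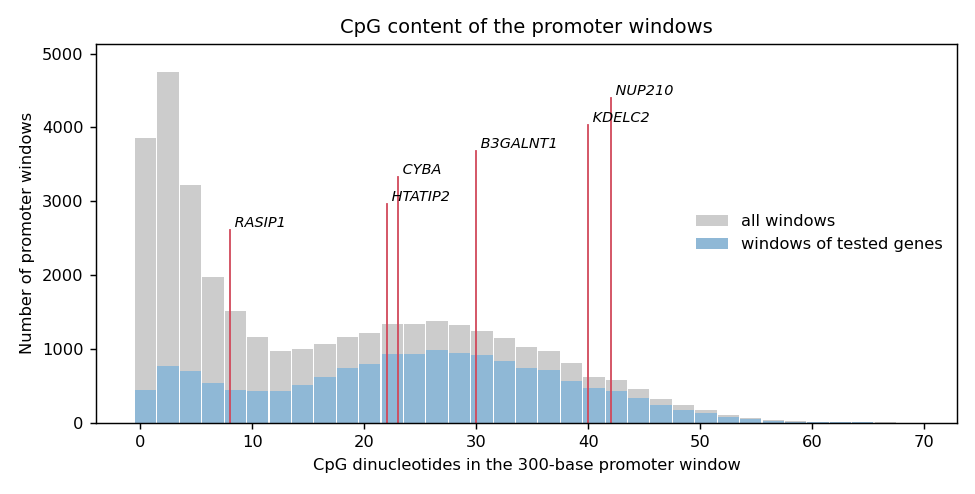
Number of 300-base RefSeq promoter windows (y axis) by their count of CpG dinucleotides (x axis), for all genes (grey) and for tested genes (blue), with a red line at the value of each gene (the first listed window for B3GALNT1). The lines run from 8 in RASIP1 to 42 in NUP210. At least 15 CpG were found for 5 of 6 genes, beside 75.0% of the windows of tested genes.

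CYBA, LAYN and B3GALNT1 had no reads at all in dish-grown ITGB4-low cells. CYBA had 665 and 595 counts in the ITGB4-high libraries (25.1 and 23.2 CPM), 0 in each of the 3 ITGB4-low libraries, and 0, 1 and 0 in the lung-recovered libraries. LAYN had 422 and 359 counts in ITGB4-high (15.9 and 14 CPM) and 0 in all 6 libraries of clone 1 origin. B3GALNT1 had 379 and 362 counts in ITGB4-high (14.3 and 14.1 CPM) and likewise 0 in all 6. A count of 0 over the 3 ITGB4-low libraries allows a level of up to 0.0449 CPM (3 counts over the group), and over the 3 lung-recovered libraries up to 0.0419 CPM. These floors and all intervals given here cover counting error only. Against them, CYBA was at least 537.5-fold lower in ITGB4-low than in ITGB4-high, LAYN at least 333-fold and B3GALNT1 at least 316-fold. In lung-recovered cells LAYN was at least 357-fold and B3GALNT1 at least 339-fold lower. The single CYBA count there gives a ratio of 1728 with a 95% counting interval of 309.6 to 68300. A floor rests on the depth of its group. Without ITGB4-low replicate 3, the deepest of its group, the bounds were 337-fold for CYBA, 209-fold for LAYN and 198-fold for B3GALNT1. Without lung-recovered replicate 3, likewise the deepest, they were 224-fold for LAYN and 213-fold for B3GALNT1, and without lung-recovered replicate 2, which held its 1 count, CYBA was at least 406-fold lower.

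HTATIP2 and KDELC2 kept a trace that was alike in the dish and after the lung. HTATIP2 had 503 and 449 counts in ITGB4-high (19.0 and 17.5 CPM), then 8, 2 and 9 in ITGB4-low and 8, 8 and 3 in lung-recovered cells, 19 in each group. Its level was thus 0.282 ± 0.163 CPM (SD, n = 3) in ITGB4-low and 0.276 ± 0.143 CPM (n = 3) in lung-recovered cells, against 18.2 ± 1.04 CPM (n = 2) in ITGB4-high. That is a ratio of high to low of 64.1 (95% counting interval 40.8 to 107). KDELC2 had 329 and 324 counts in ITGB4-high (12.4 and 12.6 CPM), 6, 3 and 5 in ITGB4-low and 5, 3 and 6 in lung-recovered cells. It was 59.7 times lower in ITGB4-low (35.3 to 109.8) and 64.0 times lower in lung-recovered cells (37.9 to 117.7). For both genes the libraries of ITGB4-low and lung-recovered cells overlapped. The ratio of lung-recovered to ITGB4-low was 0.933 for each, with counting intervals of 0.468 to 1.86 for HTATIP2 and 0.412 to 2.11 for KDELC2. These intervals leave room for changes in either direction that this depth could not show.

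NUP210 and RASIP1 stood higher after the lung than in the dish, though far below ITGB4-high. NUP210, the most abundant of the 7 in CPM, had 1573 and 1370 counts in ITGB4-high (59.3 and 53.4 CPM), 3, 5 and 0 in ITGB4-low and 32, 38 and 36 in lung-recovered cells (1.34, 1.80 and 1.35 CPM). The lung-recovered level was 12.4 times the ITGB4-low level (from summed counts, 95% counting interval 6.05 to 29.4) and 2.66% of the ITGB4-high mean. The ratio rests on 8 ITGB4-low counts: it was 7.76 without ITGB4-low replicate 3, which had 0, and 22.4 without ITGB4-low replicate 2, which had 5. RASIP1 had 669 and 547 counts in ITGB4-high (25.2 and 21.3 CPM), 4, 5 and 9 in ITGB4-low (0.194, 0.234 and 0.362 CPM) and 16, 12 and 21 in lung-recovered cells (0.672, 0.567 and 0.790 CPM). It stood 2.54 times higher in lung-recovered than in ITGB4-low cells (1.45 to 4.63), at 2.91% of the ITGB4-high mean. For these 2 of the 7 genes every lung-recovered library lay above every ITGB4-low library, a pattern that 21.6% of all tested genes showed. All 7 genes had every ITGB4-low library below both ITGB4-high libraries (33.9% of tested genes) and every lung-recovered library below them (32.6%). The choice of the genes fixes both of these counts. In bulk samples, fewer expressing cells and less RNA per cell cannot be told apart.

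**Figure D2:**
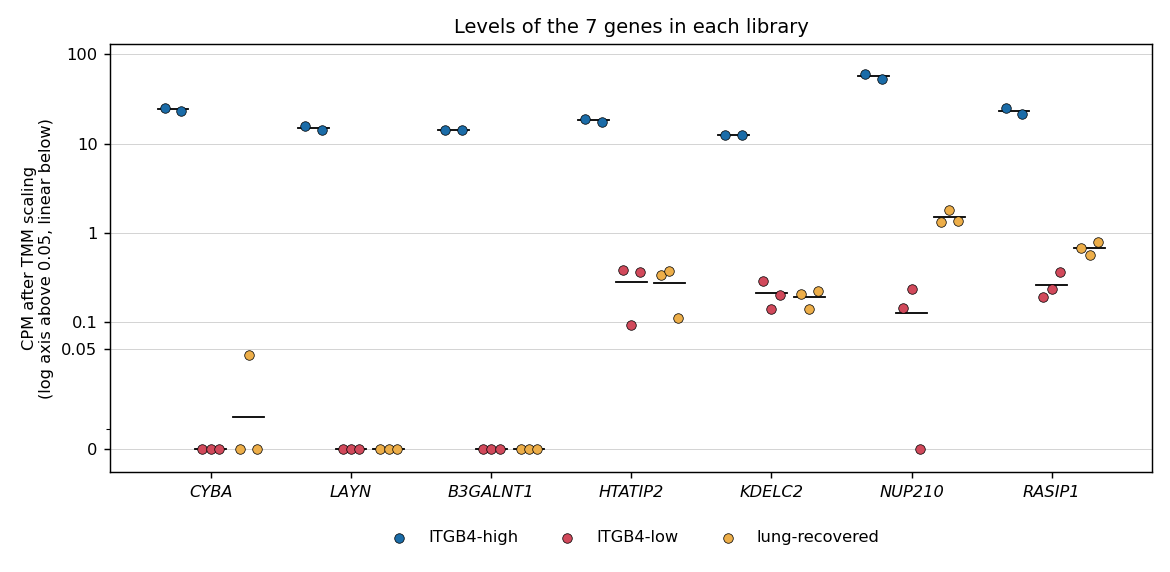
CPM after TMM scaling (y axis, logarithmic above 0.05 and linear below) of the 7 genes in each of the 8 libraries (points) with the group mean (bar). ITGB4-high libraries lie between 12.4 and 59.3 CPM, LAYN and B3GALNT1 are at 0 in all 6 other libraries, and for NUP210 and RASIP1 the lung-recovered points lie above the ITGB4-low points.

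Per kilobase of exon, the ITGB4-high levels of the 7 genes spanned 2.51 CPM per kb (KDELC2) to 7.19 CPM per kb (CYBA), with NUP210 at 6.89, HTATIP2 at 6.52, RASIP1 at 5.61, LAYN at 4.76 and B3GALNT1 at 3.39. In CPM, NUP210, CYBA (24.1 ± 1.34, SD, n = 2) and RASIP1 (23.3 ± 2.77) lay above the median tested gene of ITGB4-high cells (21.4 CPM), and the other 4 lay below it. In total the 7 genes had 8546 counts in ITGB4-high, 59 in ITGB4-low and 189 in lung-recovered cells, and NUP210 alone gave 106 of the 189.

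Few genes went from 10 CPM or more in ITGB4-high to nearly none. Of 9347 genes with a mean of at least 10 CPM in ITGB4-high, 6 had a mean under 0.1 CPM in ITGB4-low and 5 had one in lung-recovered cells. CYBA, LAYN and B3GALNT1 were in both sets, and the rest of the 7 genes were in neither. These limits are on the level, and genes were not counted by fold loss. With a limit of 0.5 CPM in ITGB4-low, set after the values were seen so that it takes in all 7 genes, there were 15. The others included the aldehyde dehydrogenase gene ALDH1A1, the semaphorin gene SEMA3E, the pseudogene NBEAP1, CCDC91, MDFI, the granulocyte growth factor gene CSF3 and the keratin gene KRT75. These genes parted in lung-recovered cells. ALDH1A1 (0.0335% of the ITGB4-high mean), SEMA3E (0.195%), NBEAP1 (4.91%) and the 7 genes stayed under 10%. CCDC91 reached 14.5%, MDFI 73.2%, CSF3 101% and KRT75 227%. MDFI, CSF3 and KRT75 thus lay at 50% or more of their ITGB4-high level, as ITGB4 did.

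**Figure D3:**
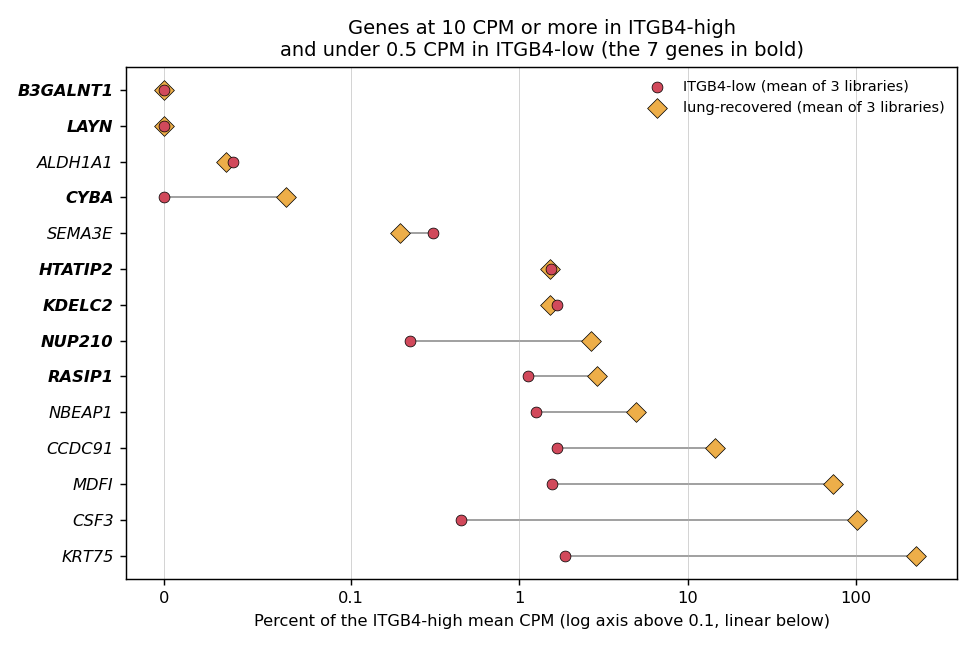
Mean CPM in ITGB4-low (circles) and lung-recovered cells (diamonds) as a percent of the ITGB4-high mean (x axis, logarithmic above 0.1 and linear below) for 14 of the 15 genes that reached 10 CPM in ITGB4-high but lay under 0.5 CPM in ITGB4-low. The 7 genes (bold) stay at or below 2.91% in lung-recovered cells, and KRT75 reaches 227%.

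The genes whose profile over the 8 libraries was most like that of each gene were found by the root mean square difference of centred log2(CPM + 0.1) values. LAYN and B3GALNT1 were each other's nearest (0.0516), with CYBA close to both (0.315 and 0.341). The nearest gene outside the 7 to all of these was SEMA3E (0.333 to 0.551), at 14.5 CPM in ITGB4-high, with 0.0447 and 0.0283 CPM in ITGB4-low and lung-recovered cells. KDELC2 was the nearest to HTATIP2 (0.492). Outside the 7, the serotonin receptor gene HTR2C (0.252) and the galactosylceramide synthase gene UGT8 (0.281) were the nearest to KDELC2. HTR2C and UGT8 had 0 counts in all 6 libraries of clone 1 origin, so for them, as for LAYN and B3GALNT1, the added 0.1 CPM sets the size of the drop and with it the likeness. For NUP210 the nearest were NBEAP1 (0.978), the phospholipase gene PLCH2 (1.05) and the urea transporter gene SLC14A1 (1.14). RASIP1 was most like EYA4 (0.327) and PLCH2 (0.347). The 8 points fall into 3 groups, so such likeness rests on the group levels.

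For each of the 7 genes the 5 nearest tested protein-coding genes on either side were taken, 65 different genes in all, because LAYN and KDELC2 share 5. Only genes that passed the filter on low counts were taken. Of the 65, 61 had a mean of at least 1 CPM in ITGB4-low, and C3orf80, BCHE, C11orf65 and TMEM40 lay under it. The share of all tested genes at that level was not counted. In ITGB4-low against ITGB4-high, 38 of the 65 fell and 10 rose (edgeR quasi-likelihood test, adjusted p under 0.05), or 73.8% of the neighbours. Of all tested genes 56.2% were called, 27.6% lower and 28.6% higher. The shift was uneven between places. All 10 neighbours of LAYN fell, with a median log2 fold change of -0.97 (FDX1 lost its call without ITGB4-low replicate 3, and C11orf1 without ITGB4-high replicate 1 or ITGB4-low replicate 1), as did 9 of the 10 around KDELC2 (median -0.81). Around CYBA 7 fell and 1 rose (-0.42), and around B3GALNT1 6 fell and 2 rose (-0.22). Around HTATIP2 (3 fell and 3 rose), NUP210 (4 and 3) and RASIP1 (4 and 1) the medians were -0.059, 0.020 and 0.018. Without ITGB4-high replicate 1 the counts around HTATIP2 were 1 and 2, and 1 gene in place of 2 rose around B3GALNT1, as it did without ITGB4-low replicate 2. The single rise around CYBA was lost in 6 of the 8 fits with 1 library left out. Rises around RASIP1 ran from 0 (without ITGB4-high replicate 2 or ITGB4-low replicate 2) to 2 without ITGB4-high replicate 1 and 3 without ITGB4-low replicate 1. With upper-quartile factors 5 genes rose around NUP210 and 3 around RASIP1. HDAC11, 1 of the rises around NUP210, lost its call in 10 of the 13 alternative fits. FANCF, 1 of the falls around HTATIP2, lost its call in 11 of them. The median over all tested genes was 0.0009. On the long arm of chromosome 11, SIK2, a salt-inducible kinase gene next to LAYN, went from 70.1 ± 6.03 to 28.2 ± 1.27 CPM (-1.31). EXPH5, next to KDELC2, went from 20.1 to 7.62 CPM (-1.39). The other genes there included RDX, whose product radixin links the membrane to actin (-1.07), the ubiquitin ligase gene CUL5 (-1.19) and the endonuclease gene ZC3H12C (-1.13).

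Around the other genes, some neighbours did not change, others fell and others rose. MVD, whose last exon ends 0.783 kb upstream of CYBA, had means of 15.2 and 13.1 CPM in ITGB4-high and ITGB4-low (adjusted p = 0.0629). ZC3H18, on its other side, was at 127 and 118 CPM (adjusted p = 0.0617). The MVD call appeared without ITGB4-high replicate 2 (log2 fold change -0.29, adjusted p = 0.0436) or ITGB4-low replicate 2 (-0.28, adjusted p = 0.0372), and that of ZC3H18 without ITGB4-low replicate 1 (-0.12, adjusted p = 0.0368). NMD3, a ribosome export gene that runs from the opposite strand and overlaps the start of B3GALNT1, with 688 bases between the 2 starts, had 7878 counts in ITGB4-high, 8339 in ITGB4-low and 9596 in lung-recovered cells. Its log2 fold change in ITGB4-low was -0.27 (SE 0.05, adjusted p = 1.12e-04). B3GALNT1 thus went from 741 counts to 0 beside a gene that was at 125 CPM, down from 151. PRMT3, the arginine methyltransferase gene that follows HTATIP2 by 3.75 kb, was at 113, 109 and 117 CPM in the 3 groups (adjusted p = 0.346 for ITGB4-low against ITGB4-high). MAMSTR, 0.866 kb from RASIP1, was at 1.19 and 1.12 CPM (adjusted p = 0.805). IQSEC1, 33.0 kb from NUP210, fell from 43.5 to 30.4 CPM (-0.52). TMEM40, the third neighbour of NUP210 on that side at 547 kb, fell from 6.10 to 0.467 CPM (-3.66, SE 0.26). BCHE, the butyrylcholinesterase gene 4670 kb from B3GALNT1, fell from 0.961 to 0.118 CPM (-2.95). PPM1L, 4.98 kb from B3GALNT1, rose from 4.59 to 8.23 CPM (0.85). FIBIN, 6610 kb from HTATIP2, rose from 2.57 to 11.9 CPM (2.21). TMEM86A, 1660 kb from HTATIP2, rose from 0.324 to 1.34 CPM (2.04). C3orf80, 856 kb from B3GALNT1, rose from 0.117 to 0.448 CPM (1.92, or 0.92 without ITGB4-high replicate 1). That call was lost without ITGB4-low replicate 2. Of the 65 neighbours 9 fell and 3 rose 2-fold or more. The share of all tested genes that changed this much was not counted.

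**Figure D4:**
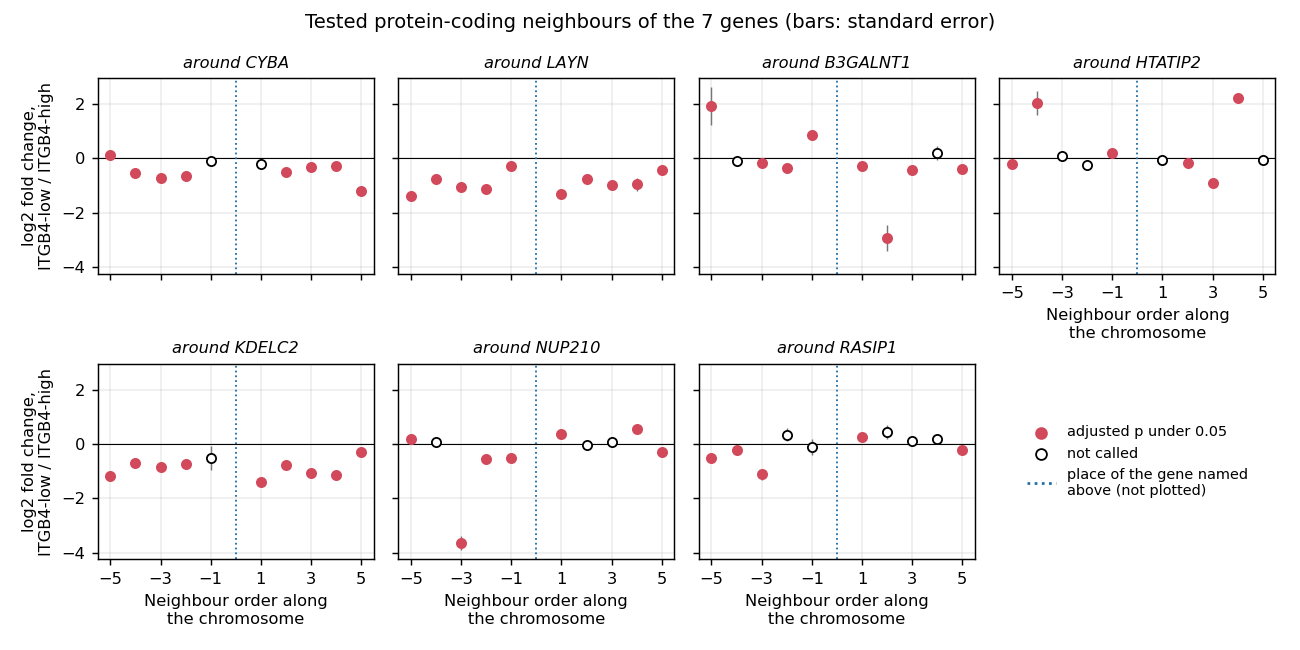
Log2 fold change of ITGB4-low against ITGB4-high (y axis, bars are standard errors) for the 5 nearest tested protein-coding genes on each side of each of the 7 genes, by their order along the chromosome (x axis). Filled points passed an adjusted p of 0.05, and all 10 around LAYN lie below 0.

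Between lung-recovered and ITGB4-low cells, 23 of the 65 neighbours were called, 10 higher and 13 lower (35.4%). Of all tested genes 30.1% were called, 14.7% higher and 15.4% lower. The count was 15 without lung-recovered replicate 3. BCHE rose again, from 0.118 to 0.942 CPM (log2 fold change 2.92), and ZC3H12C, between KDELC2 and LAYN, rose from 31.6 to 48.0 CPM (0.60). The neighbours of NUP210, whose own level was 12.4 times higher after the lung, split into 5 that were lower and 5 that were not called.

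The partners of CYBA were mostly silent in all groups. Of 17 genes of the NADPH oxidase complexes 5 could be tested, 1 of which fell in ITGB4-low against ITGB4-high (median log2 fold change -0.14), while 2 rose in lung-recovered against ITGB4-low cells. The others were not called. The share of all tested genes is 28.6% higher and 27.6% lower in ITGB4-low, and 14.7% higher and 15.4% lower after the lung, for this and each list that follows. The falls numbered 2 without ITGB4-high replicate 2. The catalytic subunit genes that pair with CYBA had few counts or none: CYBB had 2 counts in ITGB4-high, 13 in ITGB4-low and 9 in lung-recovered cells, NOX1 had 0, 0 and 1, and NOX4 had 0, 3 and 0. The cytosolic organiser genes NCF1 and NOXO1 had 1 count each in ITGB4-high and 0 elsewhere. The activator gene NOXA1 was low, at 2.83 and 2.69 CPM in ITGB4-high and ITGB4-low cells (adjusted p = 0.823). RAC1, the GTPase of these oxidases, was at 407 and 393 CPM (adjusted p = 0.348). RAC2, its relative in blood cells, fell from 78.8 ± 4.18 to 54.8 ± 1.25 CPM in ITGB4-low and rose to 111 ± 5.27 CPM after the lung. The other gene that rose there, the CYBB chaperone gene CYBC1 (28.8 to 33.8 CPM, log2 fold change 0.23), lost its call without lung-recovered replicate 3 (0.19, adjusted p = 0.0833).

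Of 16 tested genes that make, bind or break down hyaluronan or link its receptors to the cytoskeleton, 10 rose and 3 fell in ITGB4-low, with a median log2 fold change of 0.31, where 28.6% of all tested genes rose and 27.6% fell. In lung-recovered against ITGB4-low cells 3 rose and 6 fell (14.7% and 15.4% of all tested genes). CD44, the main hyaluronan receptor, rose from 446 ± 0.10 to 669 ± 10.3 CPM in ITGB4-low (0.58, SE 0.045, adjusted p = 1.25e-09) and was at 663 ± 16.9 CPM after the lung (adjusted p = 0.829). The talin genes TLN1 (0.41) and TLN2 (2.46), whose products bind the layilin tail, were higher, and TLN2 went from 17.9 to 98.3 CPM. VCAN, a hyaluronan-binding proteoglycan gene, rose from 2.71 to 29.8 CPM (3.45). After the lung TLN2 fell to 55.0 CPM (-0.84), TLN1 from 743 to 584 CPM (-0.35) and VCAN to 22.6 CPM (-0.40). The VCAN fall was lost with limma-voom (adjusted p = 0.0523). RDX, described above among the neighbours of LAYN, is also in this list and was lower. HAS2, a hyaluronan synthase gene, had 0, 0 and 3 counts in the 3 groups. HAS3, another synthase gene, was low, at 1.02, 0.589 and 0.833 CPM. The inflammation-induced hyaluronan binder TNFAIP6 rose in both comparisons, from 4.55 to 7.27 and then to 16.4 CPM.

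Of 16 tested genes of globo-series and ganglioside glycolipids, the family of B3GALNT1, 6 rose and 3 fell in ITGB4-low (median 0.11), and 4 rose and 3 fell after the lung. Without ITGB4-high replicate 1 the 3 that fell in ITGB4-low became 1. The steps before B3GALNT1 were still expressed. UGCG, which makes glucosylceramide, was at 47.6, 51.5 and 50.7 CPM in the 3 groups, and B4GALT5, which makes lactosylceramide, fell from 98.9 ± 2.04 to 60.5 ± 3.51 CPM (-0.71). A4GALT, which makes the substrate of B3GALNT1, was at 19.0 ± 0.646 and 20.9 ± 0.656 CPM (adjusted p = 0.142) and rose to 32.8 ± 1.56 CPM after the lung (0.65, SE 0.064, adjusted p = 1.18e-07). Singled out after the values were seen, 3 genes at low levels rose most in ITGB4-low. These were GBGT1 (0.520 to 3.51 CPM), the GM3 synthase gene ST3GAL5 (0.172 to 1.01 CPM) and the GD3 synthase gene ST8SIA1 (0.135 to 0.844 CPM).

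Of 10 tested enzymes that glycosylate EGF repeats, the family of KDELC2, 7 fell and 1 rose in ITGB4-low (median -0.23), and 3 rose and 2 fell after the lung. Of all tested genes 27.6% fell and 28.6% rose in ITGB4-low, and 14.7% rose and 15.4% fell after the lung. The 1 that rose was KDELC1 (also named POGLUT2), the close relative of KDELC2, from 20.7 ± 0.634 to 25.5 ± 0.611 CPM (0.30, SE 0.072, adjusted p = 0.00161). POGLUT1, the O-glucosyltransferase of Notch, fell from 36.3 to 23.9 CPM (-0.60). The Notch-modifying gene LFNG fell from 5.48 to 1.07 CPM (-2.34).

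Among 31 tested nucleoporin genes other than NUP210, 10 rose and 5 fell in ITGB4-low (median 0.093). After the lung 2 rose and the other 29 were not called. Without ITGB4-high replicate 1 the 5 that fell became 3, and with 1 library left out 0 to 4 rose after the lung, 0 without ITGB4-low replicate 2, lung-recovered replicate 2 or lung-recovered replicate 3. Of the other membrane nucleoporins, NDC1 was at 154, 167 and 168 CPM and POM121 at 79.7, 75.5 and 71.9 CPM in the 3 groups. NUP210L, the paralogue of NUP210, had at most 1 count in any group. NUP88 rose from 45.1 to 91.0 CPM (1.01) and NUP153, a protein of the nuclear basket, fell from 203 to 144 CPM (-0.49).

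Of 6 genes whose products work with HTATIP2, 3 rose and 1 fell in ITGB4-low (median 0.12). After the lung 2 fell and the other 4 were not called, and 1 fell without lung-recovered replicate 3. The single fall in ITGB4-low was lost without ITGB4-high replicate 2, ITGB4-low replicate 2 or 3, or lung-recovered replicate 1 or 3. The importin alpha gene KPNA2 rose from 247 to 311 CPM and fell to 250 CPM after the lung. Of 20 tested genes of RAP1 signalling, around RASIP1, 7 rose and 5 fell in ITGB4-low (median 0.041), and 3 rose and 5 fell after the lung. ARHGAP29, a binding partner of RASIP1, rose from 2.64 ± 0.861 to 21.3 ± 2.02 CPM (3.01, SE 0.143). RADIL, its other partner, had 0, 0 and 3 counts in the 3 groups. HEG1, a receptor that anchors RASIP1 at endothelial junctions, rose from 59.4 to 83.4 CPM and fell to 58.5 CPM after the lung. RASSF5, another RAP1 effector gene, rose in both comparisons, from 3.34 to 6.27 and then to 9.10 CPM. RAP1A fell from 67.9 to 54.4 CPM (-0.32) and RAP1B was at 65.2 and 67.9 CPM (adjusted p = 0.344).

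The machinery that methylates DNA or histones was expressed in all groups. Of 15 tested genes of the DNA methylation machinery, 4 rose and 7 fell in ITGB4-low (median -0.018), and 2 rose and 5 fell after the lung. These 7 calls after the lung became 3 without ITGB4-low replicate 2 or 3 or lung-recovered replicate 1 or 3. The maintenance methyltransferase gene DNMT1 was at 192 ± 5.19 and 194 ± 14 CPM in ITGB4-high and ITGB4-low cells (adjusted p = 0.806). DNMT3A, a gene of de novo methylation, fell from 7.79 to 4.74 CPM (-0.72, SE 0.155, adjusted p = 5.69e-04), and DNMT3B was at 3.23 and 3.24 CPM (adjusted p = 0.993). UHRF1, which guides DNMT1, rose from 50.4 to 60.8 CPM (0.27). The demethylase gene TET2 rose from 20.8 to 30.1 CPM (0.53) and fell to 22.3 CPM after the lung (-0.44). Of 17 genes of polycomb repression and H3K9 methylation, 3 rose and 7 fell in ITGB4-low (median -0.078), and 1 rose and 1 fell after the lung, the fall being lost without ITGB4-low replicate 2 or lung-recovered replicate 1 or 3. EZH2, the catalytic subunit gene of polycomb, rose from 41.7 to 53.8 CPM (0.37) and RBBP4, a histone-binding subunit gene, fell from 210.0 to 146 CPM (-0.52) and rose to 169 CPM after the lung (0.21). Over the 9 lists the median log2 fold change between lung-recovered and ITGB4-low cells ran from -0.074 to 0.235, beside 0.00031 for all tested genes. Whether any of these genes bears on the 7 was not tested.

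**Figure D5:**
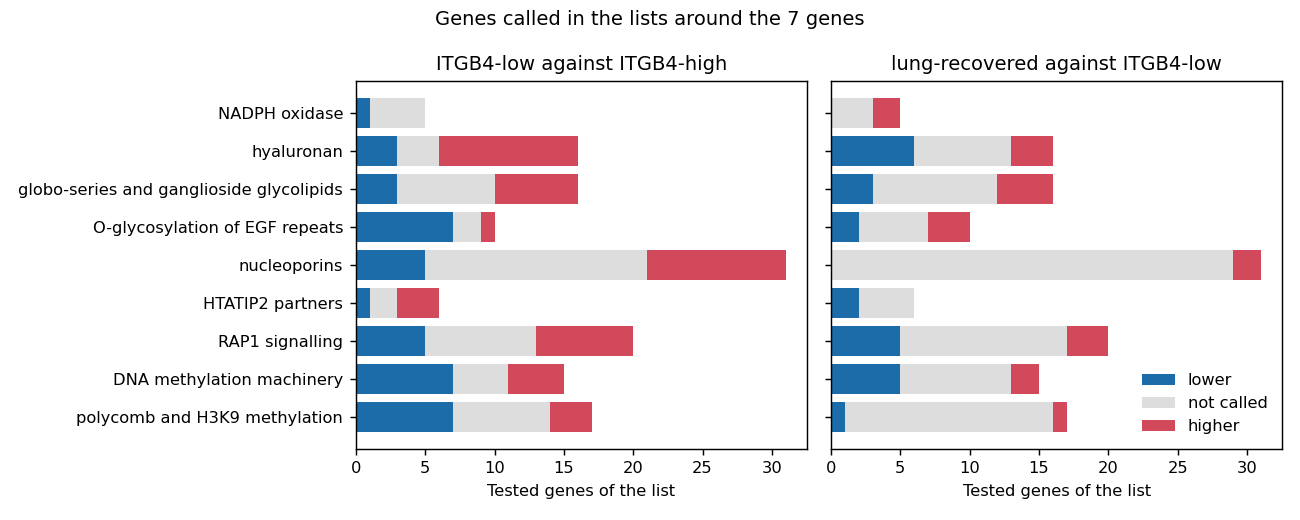
Number of tested genes (x axis) called lower (blue), called higher (red) or not called (grey) in the 9 gene lists around the 7 genes, for ITGB4-low against ITGB4-high (left) and lung-recovered against ITGB4-low (right). In the list of EGF-repeat enzymes 7 of 10 fell in ITGB4-low, where 27.6% of all tested genes fell, and 29 of 31 nucleoporin genes were not called after the lung.

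CYBA is abundant in phagocytes and RASIP1 in endothelium, so markers of cell types that a sort from lung could hold were read beside them. Of 13 macrophage and myeloid markers, LYZ, TYROBP, AIF1 and SPI1 had 0 counts in lung-recovered cells. The summed level of the list was 6.51 to 7.26 CPM there, against 5.77 to 6.22 CPM in ITGB4-low. PTPRC, which encodes the leukocyte protein CD45, had 0 counts in ITGB4-high, 58 in dish-grown ITGB4-low and 55 in lung-recovered cells. Of 12 endothelial markers, VWF and CLDN5 were at 0 in lung-recovered cells. CDH5 had 1 count and PECAM1 had 25, against 10 in ITGB4-low. The summed level was 25.8 to 27.9 CPM in lung-recovered and 26.4 to 27.6 CPM in ITGB4-low cells. The 10 lung epithelial markers summed to 2.46 to 2.94 CPM (2.19 to 2.82 in ITGB4-low) with 4 at 0, and the 8 lymphocyte markers to 0.0473 to 0.126 CPM (0.0486 to 0.201) with 6 at 0. The 8 lung fibroblast markers summed to 150.0 to 158 CPM in lung-recovered against 46.7 to 54.0 CPM in ITGB4-low cells, with 0 of 8 at 0. Of the 5 that were tested COL1A1 (30.7 to 101 CPM), PDGFRA (3.51 to 36.5 CPM) and COL3A1 (0.490 to 1.83 CPM) rose, PDGFRB fell (13.8 to 10.7 CPM), and DCN was at 2.32 and 2.65 CPM (adjusted p = 0.568). The lungs were those of mice, the genome used was human, and the handling of mouse reads is not given. These human counts therefore cannot show how many mouse cells passed the sort. The part of these cell types in the levels of NUP210 and RASIP1 was not tested.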

How the data were processed

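The deposited table holds raw counts per Ensembl gene for 8 libraries, 20413724 to 27218800 each. Per the submitters' processing notes, STAR 2.7.1a and hg38 were used. Counting program, strand setting, annotation release and handling of mouse reads: not given in the sources used here. Thus counts of overlapping genes such as B3GALNT1 and NMD3 may be shared. Identifiers were matched to GENCODE release 29 (58216 of 58336).

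All libraries entered 1 edgeR 4.0.16 quasi-likelihood fit (R 4.3.3) with a term per group, TMM factors (0.975 to 1.012) and filterByExpr, which kept 15220 genes. P-values were adjusted by Benjamini-Hochberg over all of them. The script was tested on simulated data. Levels are CPM after TMM scaling. The labels call the libraries biological replicates and name no culture or animal, and p-values reflect only how these libraries vary. No 2 libraries of a group agreed within sampling noise (chi-square over its degrees of freedom 1.59 to 6.39).

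The 7 genes and all lists were chosen with earlier results of these data known. Named were the 7 genes, their direct partners, the extreme called genes per list (at least 5 CPM in a group), nearest or 2-fold changed neighbours and the 3 most alike genes. Not every gene so named is reported here. CYBC1, C11orf1, FANCF, GBGT1, ST3GAL5, ST8SIA1 and the marker examples were picked after their values were seen. Alternatives were DESeq2 1.42.0, limma-voom 3.58.1, upper-quartile factors, no filter, a replicate block and leaving out each library.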

Additional observations from a re-analysis of the deposited data

How the results depend on the processing

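The counts of called genes varied with the processing. Over all tested genes, 8554 were called in ITGB4-low against ITGB4-high and 4586 in lung-recovered against ITGB4-low. With the replicate number as a block these were 7990 and 4146, and with DESeq2 7743 and 3932. Without ITGB4-low replicate 3 they were 7903 and 3802, and without lung-recovered replicate 1 they were 8279 and 3532. Libraries with the same number did not deviate together (correlations of -0.075 to 0.040). This cannot show whether they shared a culture, animal or day, which the labels do not state. Of the called list genes, 59 of 83 (ITGB4-low against ITGB4-high) and 25 of 44 (lung-recovered against ITGB4-low) kept their call under each of the 13 alternatives, and of the called neighbours 37 of 48 and 14 of 23. Apart from CYBC1, C3orf80 and VCAN after the lung, each rise or fall stated with name and level was kept under all of them. This covers list genes, neighbours, ITGB4, COL1A1, COL3A1 and PDGFRA. For the genes set apart the report names the setting. The fall of PDGFRB after the lung was lost with limma-voom. Called neighbours in lung-recovered cells numbered 15 to 24 with 1 library left out. Genes that met the limits of 10 and 0.1 CPM numbered 6 in ITGB4-low. They numbered 10 with 5 CPM as the minimum in ITGB4-high, 2 with 20 CPM, and 5 to 8 with 1 library left out. With the limit at 0.5 CPM, which was chosen after seeing the data, they numbered 15. In lung-recovered cells, and in both groups, 5 became 2 with 20 CPM. A count of 0 over a group of 3 libraries leaves room for levels up to 0.0449 CPM in ITGB4-low and 0.0419 CPM in lung-recovered cells.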
